A study of Macaca mulatta with 2 samples.

Results

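In a blood cell preparation of 1 rhesus monkey labelled as CD4+CD8+ double-positive (DP) T cells, 67 of 7601 cells were chosen by their RNA for SOX4 together with the naive T cell genes CCR7 and LEF1. Of all 7601 cells, 3636 (47.8%) lay above background for both the CD4 and the CD8 antibody tag, a measure explained below. Each of the 67 had at least 1 UMI of CCR7, of LEF1, of SOX4 and of the T cell receptor chains CD3D, CD3E or CD3G, and none of FOXP3, GZMB or MS4A1. A UMI (unique molecular identifier) is a random barcode that marks 1 captured RNA molecule, so UMIs count molecules rather than reads. The 852 cells that passed every other condition but had 0 SOX4 UMIs, here called SOX4-undetected, were the comparison. The remaining 6526 cells with a CD3 UMI served as a wider reference.

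The single group was an untreated healthy Macaca mulatta, 6 years old, whose fresh blood mononuclear cells were enriched with releasable CD4 beads and then with CD8 beads. An RNA library and a library of antibody tags against CD4 and CD8 were made from the same cells on a droplet platform that reads the 5′ end of transcripts. The deposited counts held 7923 distinct barcodes, 35432 genes and 32297887 gene UMIs, and 7601 cells with 31007499 UMIs were kept (200 to 4000 genes, at most 20% mitochondrial UMIs). With 1 animal and 1 library of each kind there is no replicate and no test, and every interval below is a 95% interval of counting error only.

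A naive T cell has left the thymus and has not yet met its antigen. It circulates through lymph nodes, which it enters with the help of the chemokine receptor CCR7, and it keeps its resting program with the related transcription factors LEF1 and TCF7. SOX4 is a further high-mobility-group transcription factor, known from T cell development in the thymus and from TGF-beta signalling, and PECAM1 (CD31) is used in blood to mark naive CD4 T cells that left the thymus recently. In mature T cells CD4 and CD8 usually exclude each other, so a blood T cell with both on its surface is uncommon.

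The label of these cells holds 2 claims that the choice did not settle, that they are naive and that they are double positive. The RNA of 2 naive genes went with the first, and the tags went against the second for most of the cells. TCF7 and PECAM1, which the choice did not use, had 302 and 178 CPM (UMIs of a gene scaled to a total of 1000000 UMIs) in the SOX4+ cells, against 71.4 and 60.9 CPM in the other CD3+ cells. Those other cells had failed the choice, so the gap was partly set by it. The SOX4-undetected cells, which passed every condition but SOX4, also lay above them for both genes, with TCF7 at 143 CPM. The CD8 tag exceeded the level of B cell gene-bearing cells in 10 of 67 SOX4+ cells. The cells are therefore named below by their genes, as SOX4+ CCR7+ LEF1+ cells or simply SOX4+ cells, and not as double positive.

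SOX4 lies on chromosome 4 of the rhesus genome Mmul_10, at chr4:148399045-148404894 on the minus strand, as a gene of 1 exon. CCR7 lies at chr16:51706765-51717446 and LEF1 at chr5:106411810-106535836, both also on the minus strand. Of 7601 kept cells, 7445 had a CD3 UMI, 2191 of those had a CCR7 UMI, 1132 of those a LEF1 UMI, and 919 of those no UMI of FOXP3, GZMB or MS4A1. The 67 SOX4+ cells made up 7.29% of these 919 (interval 5.69 to 9.17%) and 0.881% of all kept cells (0.684 to 1.12%). SOX4 was scarce even in the cells chosen for it: 40 cells had 1 UMI, 17 had 2, 5 had 3, 4 had 4 and 1 had 5. The edge of the rule thus ran through single molecules, with 40 members just inside it at 1 UMI and the 852 comparison cells just outside at 0.

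In total, 169 kept cells held 263 SOX4 UMIs, of which the 67 chosen cells held 110. A further 30 SOX4+ cells missed the choice only for want of a LEF1 UMI and 17 only for want of a CCR7 UMI. FOXP3, the factor of regulatory T cells, removed 8 cells on its own, and GZMB, a granule protease of cytotoxic cells, removed another 8. MS4A1 (CD20), a B cell gene, removed 1. Another 8 SOX4+ cells had no CD3 UMI and 30 failed on 2 or more conditions.

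SOX4 detection followed the genes of the naive program. A SOX4 UMI was found in 7.51% of cells with both CCR7 and LEF1 (6.04 to 9.20%, n = 1132), in 3.49% with CCR7 alone, in 2.91% with LEF1 alone and in 0.397% with neither (n = 4532). Cytotoxic cells are a class that should lack SOX4, and 0.632% of GZMB+ CD3+ cells (0.392 to 0.964%, n = 3323) had a UMI, so the share in the CCR7 and LEF1 class stood above this background. The classes differed in depth, with a median of 4460 UMIs in cells with both genes and 3303 in GZMB+ cells. After every cell was thinned at random to 2000 UMIs the shares were 3.98% (2.91 to 5.31%) and 0.384%. At that depth cells with CCR7 alone stood at 2.89% (1.94 to 4.12%) and with LEF1 alone at 1.86% (0.99 to 3.15%). These intervals overlap that of cells with both genes. B cell gene-bearing cells without CD3 also had SOX4, in 8 of 86 cells (9.30%, 4.10 to 17.5%), and were not taken as a background for it.

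**Figure D1:**
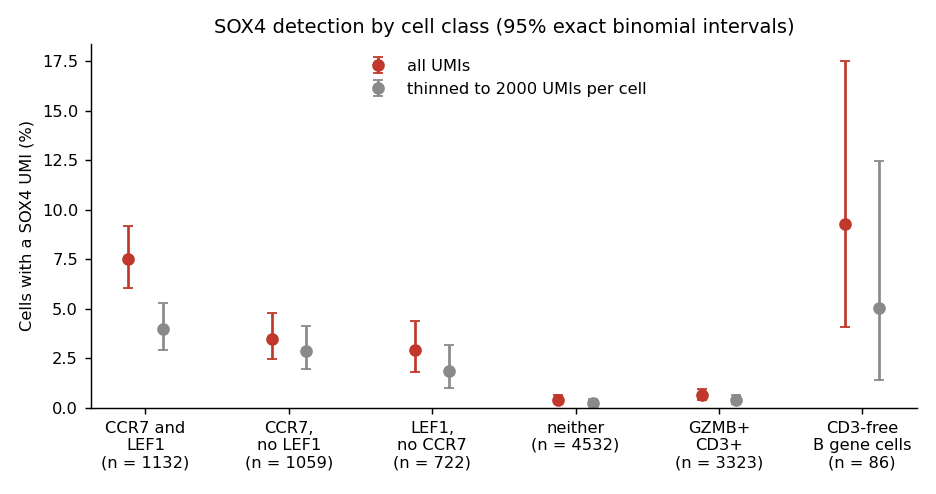
Share of cells with a SOX4 UMI (vertical axis, percent) in 6 cell classes, before (red) and after (grey) thinning to 2000 UMIs per cell, with 95% exact binomial intervals as bars. Cells with both CCR7 and LEF1 stood at 7.51% before and 3.98% after thinning, cells with neither gene at 0.397% and 0.262%.

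The SOX4+ cells were not deeply sequenced cells. Their median was 3368 UMIs (quartiles 3013 to 4297.5, range 1861 to 10949) and 1081 genes per cell, below the 4335 UMIs and 1314.5 genes of SOX4-undetected cells, although having a SOX4 UMI asks for 1 more molecule. Ribosomal protein genes took 35.8% of their UMIs, against 34.6% in SOX4-undetected cells and 28.1% in other CD3+ cells. Mitochondrial genes took 4.62%, 5.15% and 5.32%. Depth differs between the groups, so shares of cells were compared at 2000 UMIs, which left 65 SOX4+ cells (2 were too shallow) and 831 SOX4-undetected cells (21 too shallow).

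The CD8 tag was lower in SOX4+ cells and the CD4 tag was present in nearly all of them. A tag's level is the number of its antibody barcodes counted in a cell, and even cells without the protein carry some. The median CD8 tag was 122 UMIs in SOX4+ cells (interval of the median 109 to 136, quartiles 85.5 to 162.5, range 47 to 1304) and 368 in SOX4-undetected cells (335 to 405, quartiles 158 to 611.5, range 42 to 32200). The level in SOX4-undetected cells was 3.02-fold higher, and the ratio of SOX4+ to SOX4-undetected cells was 0.332 (0.269 to 0.406). The upper quartile of the SOX4+ cells lay close to the lower quartile of the SOX4-undetected cells, so the middle ranges barely met, while the full ranges overlapped. The B cell gene-bearing cells, which should carry neither protein, had a median CD8 tag of 139.5.

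A background for each tag was set at the 90th percentile of those 86 B cell gene-bearing cells, 330.5 UMIs for CD8 and 191 for CD4. The CD8 tag lay above it in 10 of 67 SOX4+ cells (14.9%, 7.40 to 25.7%) and in 460 of 852 SOX4-undetected cells (54.0%, 50.6 to 57.4%). Other CD3+ cells gave 51.3% and the B cell gene-bearing cells themselves 10.5%. The CD4 tag lay above its background in 97.0% of SOX4+ and 97.5% of SOX4-undetected cells. Its median was 325 UMIs (307 to 358) against 435.5 (424 to 442), a ratio of 0.746 (0.695 to 0.844). Taken as pairs, 55 SOX4+ cells (82.1%) were above background for CD4 alone, 10 for both tags, 2 for neither and 0 for CD8 alone. Of the SOX4-undetected cells, 377 (44.2%) were above for CD4 alone and 454 (53.3%) for both.

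**Figure D2:**
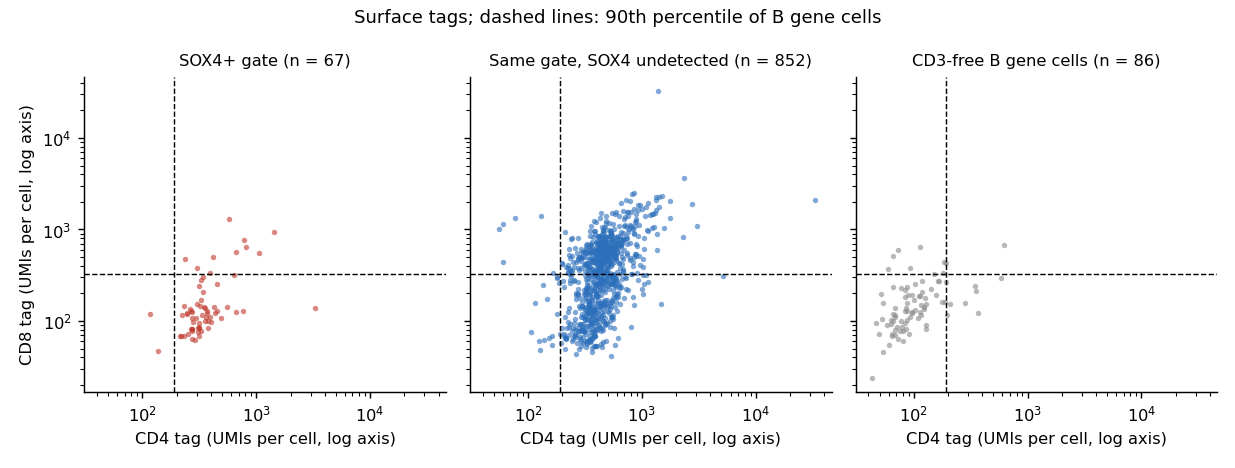
CD4 tag (horizontal) against CD8 tag (vertical), in UMIs per cell on log axes, 1 point per cell, for SOX4+ cells (67), SOX4-undetected cells of the same gate (852) and CD3-free B gene cells (86). Dashed lines mark the background of each tag (191 for CD4, 330.5 for CD8), and 55 of the SOX4+ cells lie to the right of the first line and not above the second.

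Both tags rose with depth in SOX4-undetected cells, so tag levels were compared within quartiles of gene UMIs, with edges at 3502, 4287 and 5200 UMIs. In the shallowest quartile the median CD8 tag was 112 in 36 SOX4+ cells and 197.5 in 194 SOX4-undetected cells. In the second it was 111 (13 cells) against 267.5, and in the third 126.5 (6 cells) against 422.5. In the deepest it was 438.5 (12 cells) against 576.5, and 6 of the 10 CD8-tagged SOX4+ cells were in that quartile. The SOX4+ median was the lower one in all 4 quartiles. In the deepest its interval, 130 to 764, held the SOX4-undetected median. With the SOX4-undetected cells weighted to the depth of the SOX4+ cells the CD8 ratio was 0.415 and the CD4 ratio 0.8125. The median CD4 tag was lower in SOX4+ cells in the first 3 quartiles and higher in the deepest, with 647.5 against 560.5.

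Seen from the other side, SOX4+ cells gathered at the low end of the CD8 tag. Of the 231 cells with the lowest CD8 tag among the 919 (42 to 141 UMIs), 45 had SOX4 (19.5%, 14.6 to 25.2%). The share was 5.63% in the second quartile, 2.19% in the third and 1.75% in the highest (4 of 229 cells, 600 UMIs or more), while the median depth rose from 3630 to 5102 gene UMIs. The number of SOX4 UMIs was looked at as well. Among the 27 cells with 2 or more SOX4 UMIs the median was 115 and 1 cell lay above background (3.70%, 0.0937 to 19.0%), and among the 40 cells with 1 UMI it was 133 with 9 above (22.5%, 10.8 to 38.5%), intervals that overlap.

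CD8A RNA moved with the tag. It encodes the chain that the CD8 tag antibody binds, and lies at chr13:19092978-19100027. It had 58.2 CPM in SOX4+ cells (16 UMIs in 11 cells) and 163 CPM in SOX4-undetected cells, a log2 ratio of -1.49 (-2.30 to -0.78). CD8B was scarce in both and near the floor in the SOX4+ cells, with 5 UMIs there (18.2 against 13.7 CPM, log2 ratio 0.41, -1.27 to 1.72). CD4 RNA had 109 CPM in SOX4+ cells against 158 CPM (log2 ratio -0.53, -1.11 to -0.01). Both lineage lists had lower sums in SOX4+ cells. The CD8 list had 94.6 against 207 CPM (log2 ratio -1.13, -1.75 to -0.57), with EOMES and CRTAM at 0 and RUNX3 at 18.2 against 23.9 CPM (-0.39, -2.05 to 0.88). The CD4 list had 251 against 376 CPM (-0.58, -0.95 to -0.24), with TNFRSF4 and TSHZ2 at 0 and GATA3 at 65.5 against 57.1 CPM (0.20, -0.58 to 0.89).

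RNA levels were then compared over all genes outside the choice, as summed UMIs per group in CPM. A gene was counted as higher or lower when the ratio of CPM + 10 passed 1.5-fold and the higher group held at least 50 UMIs. By this rule 9 of 3366 genes were higher in SOX4+ cells (0.267%) and 727 were lower (21.6%). The rule is lopsided, because 50 UMIs mean 182 CPM among the 274778 UMIs of the SOX4+ cells and 12.5 CPM among the 4012873 UMIs of the SOX4-undetected cells. With 182 CPM asked of either group, 523 genes could be compared, with 9 higher (1.72%) and 27 lower (5.16%) and a median log2 ratio of 0.01. Counts of higher and lower genes are best read from this common level.

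**Figure D3:**
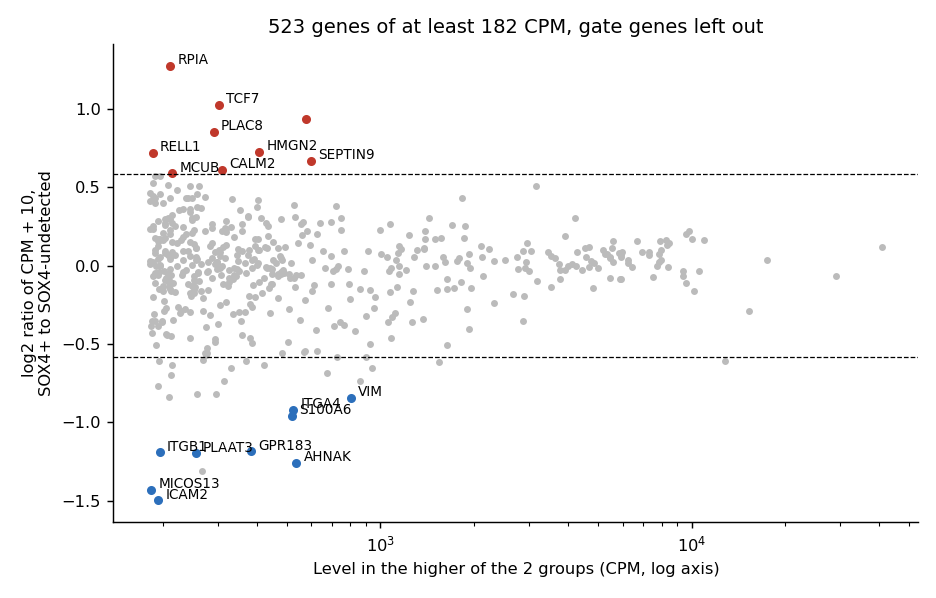
Level of each of 523 genes in the higher of the 2 groups (horizontal, CPM, log axis) against the log2 ratio of CPM + 10 in SOX4+ to SOX4-undetected cells (vertical). Dashed lines mark 1.5-fold, red points the 9 genes above it, and blue points the 9 genes with a symbol that lie farthest below it, ICAM2 and MICOS13 at the bottom.

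The 9 higher genes included TCF7 of the naive program, which the choice had not used, and 8 of the 9 are described here. TCF7, at chr6:131551558-131584973, had 302 CPM in SOX4+ and 143 CPM in SOX4-undetected cells (log2 ratio 1.08, 0.73 to 1.41), and at 2000 UMIs it was found in 44.6% against 24.8% of cells. The highest ratio was that of RPIA, an isomerase of the pentose phosphate pathway at chr13:18225089-18279248, with 211 against 81.2 CPM (1.38, 0.95 to 1.78). PLAC8, a small cysteine-rich protein, had 291 against 157 CPM (0.89, 0.54 to 1.23). All 3 were higher in SOX4+ cells in each of the 4 depth quartiles. All 3 lay below 182 CPM in the SOX4-undetected cells. They thus reached the common level only through the SOX4+ cells, where only a higher call was possible. With the SOX4-undetected cells weighted to the depth of the SOX4+ cells, all 9 genes kept their direction and 5 passed 1.5-fold (RPIA, TCF7, HMGN2 and CALM2 among them), and all 27 lower genes kept theirs and 19 passed.

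The other 5 had log2 ratios from 0.62 to 0.77. They were RELL1, a relative of the TNF receptor RELT, HMGN2, a protein that binds nucleosomes, the cytoskeletal GTPase SEPTIN9, the calmodulin gene CALM2, and MCUB, a subunit of the mitochondrial calcium channel. HMGN2 had 408 against 242 CPM and SEPTIN9 597 against 371 CPM, so both reached the common level in either group. RELL1 (186 against 109 CPM) and MCUB (215 against 139 CPM) reached it only through the SOX4+ cells. HMGN2 and CALM2 belong to families with near-identical copies, so their counts are less certain. U2AF1, SCML4 and ANP32A came next and missed 1.5-fold, with log2 ratios of CPM + 10 of 0.57, 0.57 and 0.53.

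PECAM1 is the marker that names recent thymic emigrants, and it was not part of the choice. It lies at chr16:60880550-60963969 and had 178 CPM in SOX4+ cells (132 to 236, 49 UMIs) and 145 CPM in SOX4-undetected cells, a log2 ratio of 0.30 (-0.15 to 0.72) whose interval includes no difference. With 49 UMIs it was 1 short of the minimum. Against the other CD3+ cells its log2 ratio was 1.55. Cells with a PECAM1 UMI at 2000 UMIs made up 29.2% of SOX4+ and 23.2% of SOX4-undetected cells.

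Other genes of the naive list stood at similar levels in both groups. The T cell surface protein CD7 had 626 against 542 CPM (log2 ratio 0.21, -0.02 to 0.43), the quiescence factor KLF2 480 against 463 CPM (0.05, -0.21 to 0.31), and S1PR1, the receptor with which T cells leave lymph nodes, 295 against 292 CPM (0.01, -0.33 to 0.34). FOXP1, which restrains activation, had 160 against 102 CPM (0.64, 0.16 to 1.10) on 44 UMIs. IL7R, the receptor of the survival cytokine IL-7, went the other way, with 1085 CPM against 1374 CPM (-0.34, -0.51 to -0.17), and CD28, the costimulatory receptor, had 12 UMIs (43.7 against 73.3 CPM, -0.75, -1.72 to 0.08). Of the 16 listed genes measured, 7 reached the common level, of which 2 were higher, beside 1.72% of all genes, and 0 lower, beside 5.16%. TCF7, which was called, and KLF3 (204 against 169 CPM), which was not, reached it only through the SOX4+ cells. For these only a higher call was possible. At the 50-UMI minimum 2 of 9 were higher, beside 0.267% of all genes. At this minimum 1 of 9, CD28, was lower, beside 21.6% of all genes, a call that the common level does not hold. Summed, the list had 4385 CPM in SOX4+ cells, 3986 CPM in SOX4-undetected cells and 2840 CPM in other CD3+ cells. The log2 ratio of the first 2 sums was 0.14 (0.05 to 0.22). It was 0.07 with the SOX4-undetected cells weighted to the depth of the SOX4+ cells. After thinning to equal depth, the median cell had 8 UMIs of the list in both groups. The quartiles were 6 to 12 in SOX4+ and 6 to 10 in SOX4-undetected cells, so the medians showed no difference.

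The genes that chose the cells are given only as a description. CCR7 had 593 CPM in SOX4+ and 413 CPM in SOX4-undetected cells, and LEF1 had 550 CPM and 383 CPM. In the SOX4+ cells 23 had 1 CCR7 UMI, 21 had 2 and 23 had 3 or more, and for LEF1 these were 22, 22 and 23 cells.

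Genes of memory T cells were mostly lower. A memory T cell has met its antigen and carries more of the S100 calcium-binding proteins, annexins, integrin beta 1 (ITGB1), the intermediate filament vimentin (VIM) and the scaffold AHNAK. Of the 18 listed genes measured, 9 reached the common level and 6 of them were lower in SOX4+ cells, beside 5.16% of all genes, and 0 were higher. ITGB1 (22 UMIs) and ANXA1 (45 UMIs) reached it only through the SOX4-undetected cells, where only a lower call was possible, and S100A4, S100A6, AHNAK and VIM reached it in the SOX4+ cells as well. At the 50-UMI minimum 10 of 14 were lower, beside 21.6%, and PRDM1 and CXCR3 (1 UMI each), CCR6 (4) and LGALS3 (5) also entered only through the SOX4-undetected cells. The summed list had 2773 CPM in SOX4+ cells, 4563 CPM in SOX4-undetected cells and 9515 CPM in other CD3+ cells, a log2 ratio of -0.72 (-0.82 to -0.61) between the first 2.

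AHNAK had 218 against 536.5 CPM (log2 ratio -1.30, -1.69 to -0.93), ITGB1 80.1 against 196 CPM (-1.29, -1.97 to -0.68), S100A6 262 against 519 CPM (-0.99, -1.35 to -0.65) and VIM 444 against 805 CPM (-0.86, -1.13 to -0.60). ANXA1, an annexin that binds membranes in a calcium-dependent way, had 164 against 297 CPM (-0.86, -1.32 to -0.43), while the annexin ANXA2 had 207 against 166 CPM (0.32, -0.09 to 0.72), within 1.5-fold. S100A4 had 513 CPM in SOX4+, 862 CPM in SOX4-undetected and 3259 CPM in other CD3+ cells (-0.75 between the first 2, -1.0 to -0.51). S100A10 was within 1.5-fold (542 against 712 CPM). S100A11 was counted under 2 gene identifiers, of which the list holds the scarce one with 1 UMI in the SOX4+ cells, and the abundant one had 655 against 928 CPM.

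These memory gene UMIs were uneven among the 67 cells. A set of 5 cells held 70.2% of the 141 S100A4 UMIs, the 5 highest cells for ITGB1 held 90.9% of its 22 UMIs, and those for AHNAK held 58.3% of its 60. The 5 highest cells for the whole list held 48.0% of its 762 UMIs. At 2000 UMIs per cell, the median SOX4+ cell had 3 UMIs of the memory list (quartiles 1 to 4, highest 25), the median SOX4-undetected cell 7 (4 to 12, highest 45) and the median other CD3+ cell 19 (11 to 28). No memory UMI was found in 11 of 65 SOX4+ cells (16.9%, 8.76 to 28.3%) and in 16 of 831 SOX4-undetected cells (1.93%, 1.10 to 3.11%).

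Genes of adhesion and tissue entry were the next group. ICAM2, a ligand of the integrin LFA-1 at chr16:60561289-60580883, had the lowest ratio at the common level, with 61.9 against 193 CPM (-1.64, -2.43 to -0.95). The integrin chain ITGA4, which pairs with ITGB1 or ITGB7 for entry into tissue, had 273 against 526 CPM (-0.95, -1.30 to -0.61), and the hyaluronan receptor CD44 had 175 against 270 CPM (-0.63, -1.08 to -0.21). GPR183, an oxysterol receptor that places cells in lymphoid tissue, had 164 against 385 CPM (-1.23, -1.69 to -0.81). The chemokine receptor CXCR4 was on the other side, with 375 against 299 CPM (0.33, 0.02 to 0.62), within 1.5-fold. Of the 11 homing and adhesion genes measured, 4 reached the common level and 3 of them were lower (ITGA4, ICAM2 and CD44), beside 5.16% of all genes. ICAM2 (17 UMIs) and CD44 (48 UMIs) reached it only through the SOX4-undetected cells, as did CXCR5 (1 UMI) and ITGAL (9 UMIs) the 50-UMI minimum, at which 5 of 8 were lower, beside 21.6%. For a gene that enters this way only a lower call was possible, so these counts are a description.

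Genes with 0 to 2 UMIs in the SOX4+ cells could pass the 50-UMI minimum only through the SOX4-undetected cells, so their direction was set by that minimum and they are given as values alone. They filled the low end of the ratios among genes with a symbol. STAMBPL1, a deubiquitinase, had 1 UMI in SOX4+ cells and 221 in SOX4-undetected cells (3.64 against 55.1 CPM), and PDCD1, the inhibitory receptor PD-1, had 1 UMI and 149 (3.64 against 37.1 CPM). FGL2, PICALM and REELD1 also had 1 UMI and NCF4 had 2. TNFRSF4, the costimulatory receptor OX40, had 0 UMIs against 135, and with a floor of 3 counts over the SOX4+ cells it was at least 3.08-fold lower. The genes JOSD2, ECE1 and CCDC9 were at 0 too, at least 2.21-, 2.19- and 2.08-fold lower by the same floor. These folds only describe genes that the minimum had selected. The receptor segments TRBV14 and TRBV29-1 were also at 0. In SOX4-undetected cells their 114 and 105 UMIs came from only 16 and 21 cells (1.88% and 2.46%). The floor treats UMIs as independent, so it gives no bound for segments held by so few cells.

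Cytotoxic genes were low in both groups. The list of 14 measured genes had 178 CPM in SOX4+ cells, 271 CPM in SOX4-undetected cells and 3157 CPM in other CD3+ cells, although GZMB itself had been excluded from the first 2 by the choice. The log2 ratio of the first 2 was -0.60 (-1.05 to -0.19), and -1.43 (-2.13 to -0.80) among cells with the CD8 tag at or below background (98.1 against 264 CPM). At the 50-UMI minimum 4 of 5 were lower, beside 21.6% of all genes, all entering through the SOX4-undetected cells, and 0 reached the common level. GZMA, CCL5 and TBX21 were at 0 in the SOX4+ cells, NKG7 and GNLY had 8 UMIs each and GZMK 7. The 5 highest cells held 75.5% of the list's 49 UMIs, and at 2000 UMIs 83.1% of SOX4+ and 81.5% of SOX4-undetected cells had none.

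Genes of the thymus were scarce. Among markers of immature thymocytes RAG1 and RAG2, which cut the receptor genes during rearrangement, PTCRA, the surrogate receptor chain, CD1E and SMPD3 were at 0 in the SOX4+ cells. A count of 0 over their 274778 UMIs allows up to 10.9 CPM. AQP3 had 1 UMI, and DNTT, the polymerase that adds bases at receptor junctions, had 4 UMIs (14.6 against 7.48 CPM, log2 ratio 0.96, -1.0 to 2.47). CD99, which mature cells also express, made up most of the list, with 262 against 360 CPM. Of the recent thymic emigrant list PTK7, ADAM23, CACHD1 and NREP were at 0, TOX had 11 UMIs and IKZF2 3. Of the emigrant genes 3 reached the 50-UMI minimum, all through the SOX4-undetected cells, and 0 the common level. Among them the complement receptor CR1 had 5 UMIs (18.2 against 51.6 CPM, -1.50, -3.14 to -0.26) and was past 1.5-fold, beside 21.6% of all genes. The summed emigrant list, of which PECAM1 is the most abundant member, had 364 CPM in SOX4+ and 370 CPM in SOX4-undetected cells (log2 ratio -0.02, -0.33 to 0.27).

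No other SOX gene of the list was seen, with SOX5, SOX6, SOX8, SOX11 and SOX13 at 0 in the SOX4+ cells. The TGF-beta pathway, through which SOX4 can be induced, had 302 CPM against 403 CPM, and 1 of its 5 genes at the minimum was lower, a share close to the 21.6% of all genes. This was the ligand TGFB1 (83.7 against 157 CPM, -0.91, -1.57 to -0.31). The receptor TGFBR2 had 43.7 against 55.8 CPM (-0.35, -1.33 to 0.48) and the signal transducer SMAD3 18.2 against 25.9 CPM (-0.51, -2.16 to 0.76).

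T cell receptor signalling genes stood at 2540 CPM in both groups when summed, a log2 ratio of 0.00 (-0.11 to 0.11), and 0 of its 5 genes at the common level were higher or lower, beside 1.72% and 5.16% of all genes. PTPN22, with 2 UMIs in the SOX4+ cells, is given as a value alone (7.28 against 23.7 CPM). The kinase LCK had 233 against 237 CPM, and CD247, the zeta chain, 258 against 197 CPM (0.39, 0.02 to 0.74). Cytokine receptor genes had 852 against 756 CPM (0.17, -0.03 to 0.36), where IL6ST, the shared signalling chain of the IL-6 family, had 156 against 94.7 CPM (0.72, 0.23 to 1.18) on 43 UMIs. Immediate-early genes, which respond within minutes to stimulation and also to cell handling, had 7948 against 9567 CPM (-0.27, -0.33 to -0.21), with FOS at 1962 against 2312 CPM, CD69 at 477 against 487 CPM. At the common level 0 of 11 were lower, beside 5.16% of all genes, and at the 50-UMI minimum 3 of 18 (PLK2, SOCS1 and SOCS3), near the 21.6% of all genes. Interferon-stimulated genes had 4 of 7 lower, beside 21.6% of all genes, but these (ISG15, MX1, OAS2 and IRF7) had 1 or 2 UMIs each and passed the minimum through the SOX4-undetected cells. The 1 gene at the common level, IFI6, was within 1.5-fold (149 against 206 CPM, -0.46, -0.95 to -0.01). Survival genes had 1 of 4 lower (BIRC3), close to the 21.6% of all genes. The regulatory T cell list had neither of its 2 tested genes past 1.5-fold, with a sum of 160 against 122 CPM after FOXP3 had been used in the choice.

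**Figure D4:**
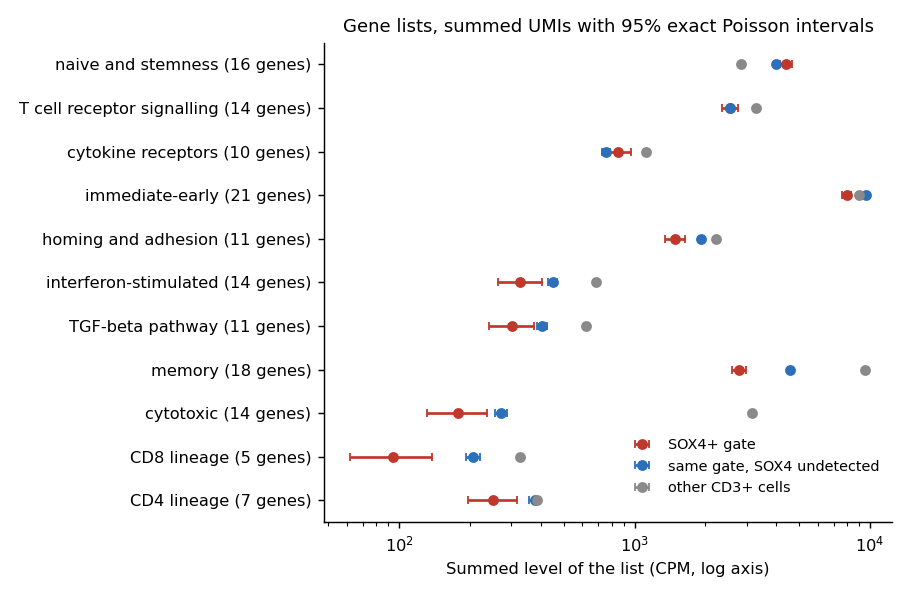
Summed level of 11 gene lists (horizontal, CPM, log axis) in SOX4+ cells (red), SOX4-undetected cells (blue) and other CD3+ cells (grey), with 95% exact Poisson intervals as bars. The memory list falls from 9515 CPM in other CD3+ cells to 4563 and 2773 CPM, the cytotoxic list from 3157 to 271 and 178 CPM, and T cell receptor signalling is at 2540 CPM in both gate groups.

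Markers of other blood cells were absent or near the floor. All 7 monocyte genes (CD14, LYZ, S100A8, S100A9, FCN1, VCAN and CST3), all 5 platelet genes and the plasmacytoid dendritic genes CLEC4C, TCF4 and IRF8 were at 0 in the SOX4+ cells. Of 6 natural killer genes only TYROBP was seen, with 8 UMIs. The red cell list had 1 UMI, of HBA, and the blood progenitor list 2, of SPINK2. Of 6 B cell genes CD79A had 8 UMIs in 8 cells, and BANK1 and TNFRSF13C were at 0, for a sum of 40.0 CPM against 27.4 CPM in SOX4-undetected cells and 82.5 CPM in other CD3+ cells. MS4A1 was at 0 by the choice.

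Because the CD8 tag differed so much between the groups, RNA was compared again among cells with the CD8 tag at or below background, 57 SOX4+ and 392 SOX4-undetected cells. At the common level for this smaller set, 234 CPM, 9 of 408 genes were higher (2.21%) and 20 lower (4.9%). Of these 9 higher genes 6 were also among the 9 of the whole groups (66.7% of each), and of the 20 lower genes 13 were among the 27 (65.0% of the 20 and 48.1% of the 27). The level asked was higher here, and without it 7 of the 9 higher and 21 of the 27 lower genes of the whole groups were past 1.5-fold. The new calls included HNRNPA3, BRK1 and ATP5MC3 as higher and JUNB and NFKBIA as lower. The 57 cells are most of the 67, so the comparisons share most of their SOX4+ cells and are not independent. The log2 ratio was 1.03 for TCF7 (0.63 to 1.41) and 1.23 for RPIA (0.75 to 1.70). The memory list had a log2 ratio of -0.77 (-0.91 to -0.64), ITGB1 -2.00 (-2.97 to -1.18) and ICAM2 -1.61 (-2.58 to -0.78). For CD8A it was -0.56 (-2.05 to 0.64) in these cells selected on the CD8 tag. PECAM1 had 0.29 (-0.20 to 0.75).

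**Figure D5:**
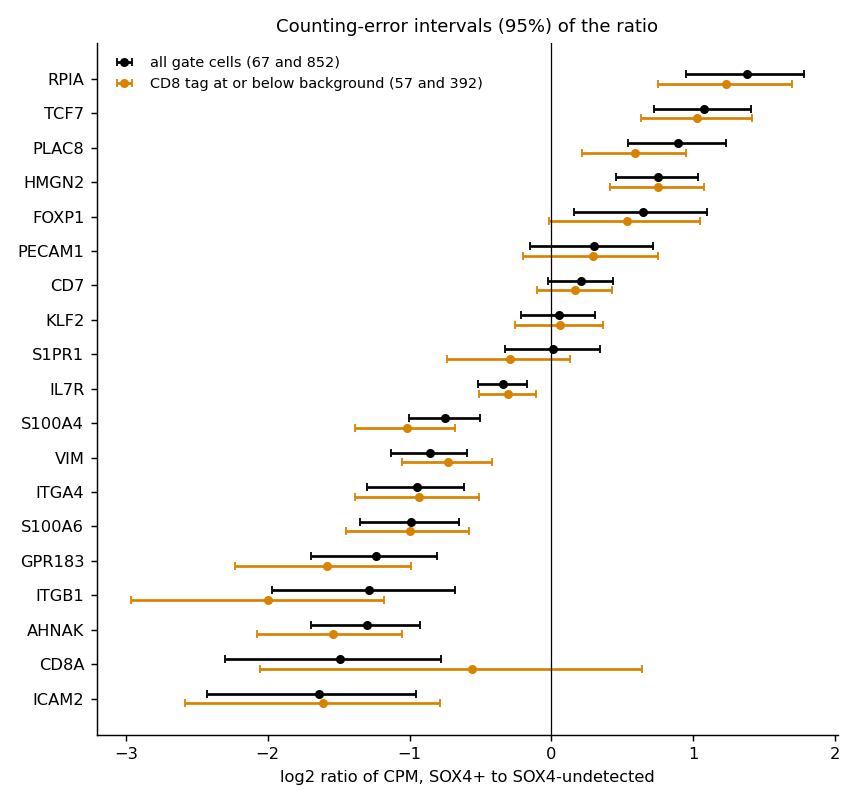
The log2 ratio of CPM in SOX4+ to SOX4-undetected cells (horizontal) for 19 named genes, in all cells (black, 67 and 852 cells) and in those with the CD8 tag at or below background (orange, 57 and 392 cells), with 95% counting-error intervals as bars. RPIA, TCF7, PLAC8 and HMGN2 lie above 0 and IL7R through ICAM2 below it in both, except that the orange interval of CD8A crosses 0.

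The 67 cells were not alike among themselves. The 10 cells with the CD8 tag above background had a median of 6523.5 gene UMIs, against 3346 in the other 57. S100A4 had 1120 CPM in the 10 cells and 341 CPM in the 57 (log2 ratio 1.72, 1.22 to 2.21), and ITGB1 165 and 56.1 CPM (1.56, 0.19 to 2.89). These sums rest on few cells, since 5 of the 10 cells held 85.3% of their memory list UMIs and 5 of the 57 held 61.6% of theirs. At 2000 UMIs per cell the median was 4.5 memory list UMIs in the 10 cells and 2 in the 55 of the 57 deep enough. CD8A had 165 and 28.0 CPM (2.56, 0.95 to 4.30). PLAC8 and PECAM1 lay the other way, with PLAC8 at 65.9 and 355 CPM (-2.43, -4.34 to -1.01) and PECAM1 at 65.9 and 210 CPM (-1.67, -3.61 to -0.22), resting on 4 UMIs each in the 10 cells. The part that depth, or droplets with more than 1 cell, had in this was not tested.

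Between SOX4-undetected cells above and at background for the CD8 tag, PLAC8 and S100A4 lay in the same directions, with PLAC8 at 104 and 236 CPM (-1.17, -1.41 to -0.94) and S100A4 at 976 and 691 CPM (0.50, 0.39 to 0.60). ITGB1 differed from the SOX4+ cells in direction, with 177 and 224 CPM (-0.35, -0.55 to -0.14). Cells with 2 or more SOX4 UMIs had more TCF7 than cells with 1 UMI, 412 against 232 CPM (0.83, 0.17 to 1.49). PECAM1 had 225 against 149 CPM (0.60, -0.27 to 1.46), an interval that includes no difference. The naive list genes KLF2 and CD7 lay the other way, also with intervals that include no difference. KLF2 had 384 against 542 CPM (-0.50, -1.06 to 0.05) and CD7 543 against 678 CPM (-0.32, -0.80 to 0.15).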

How the data were processed

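Per the submitters' processing notes, reads were counted against Mmul_10 by Cell Ranger 3.1.0, with STAR 2.5.1b as aligner, and the authors worked in Seurat 3.1.3. Which annotation release they used is not given in those sources. What they deposited are whole-number UMI counts of each gene and tag in each barcode, not normalized. The deposited gene list names 23817 of 35432 genes, and a table of gene names added 720 symbols. Mitochondrial UMIs were those of 13 named genes and 2 unnamed features (13 genes alone would leave 7876 cells). RefSeq's annotation of Mmul_10 gave positions for 258 of 267 genes, by symbol.

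UMIs were summed per group and scaled to CPM with exact Poisson intervals. Ratios carry exact binomial intervals of the 2 counts, and shares Clopper-Pearson intervals. A count of 0 is given the floor of 3 counts. Thinning used seed 1. B cell gene-bearing cells had no CD3 UMI and at least 3 UMIs of 4 B cell genes, among them MS4A1, CD79A and CD79B. No doublet caller was run and no cell was removed as a doublet. Named genes were the genes of the choice, the markers, members of the gene lists, and 12 genes per direction with the most extreme ratio of CPM + 10. Genes named at the common level were chosen after their values were seen. The members and lists were chosen with earlier results of these data known. Listed genes that could not be matched by name, such as CD27, FAS and IL32, were not analysed here, and results for some genes are not reported here.

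Python 3.11.15, numpy 2.4.6, scipy 1.17.1, pandas 2.3.3 and matplotlib 3.10.9 were used, and the computation was tested on simulated data. Alternatives covered thinning before the choice, stricter UMI minimums, the mitochondrial limit, the deepest cells, weighting by depth, pseudocounts of 1 and 50 CPM, lower UMI minimums and means over cells.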

Additional observations from a re-analysis of the deposited data

How the results depend on the processing

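Of 58 alternative values for 6 results, 38 were classed as the same as the value reported, 20 as moved and 0 as reversed. The class was loose. It took 875 lower genes without the deepest cells and 913 with means over cells as the same as 727. It also took PECAM1 log2 ratios of 0.14 and 0.63 as the same as 0.30, whose interval is wide. The share of SOX4+ cells was 0.352% when cells were thinned before the choice, 0.355% with at least 2 SOX4 UMIs and 0.421% with at least 2 UMIs of CCR7 and of LEF1. The CD8 tag ratio was 0.446 after thinning before the choice and 0.415 with weighting by depth, and ran from 0.283 to 0.446 over all its alternatives. The CD4 tag ratio ran from 0.740 to 0.834, and the log2 ratio of PECAM1 from 0.14 to 0.63 over its 9 alternatives. Those draw largely on the same cells, so their shared sign adds little. The interval of the main PECAM1 value, -0.15 to 0.72, includes no difference. The number of higher genes was 0 after thinning before the choice, where 25 cells remained, 5 with 2 SOX4 UMIs, 5 with 2 UMIs of CCR7 and LEF1, 5 with weighting by depth, 92 at a minimum of 20 UMIs and 665 at a minimum of 1 UMI. The number of lower genes was 296 after thinning, 1454 with 2 SOX4 UMIs, 390 with 2 UMIs of CCR7 and LEF1, 1158 with a pseudocount of 1 CPM, 68 with 50 CPM, and 1144 at a minimum of 20 UMIs and 1144 at 1 UMI. It was 27 at the common level and 20 among cells with the CD8 tag at background, alternatives chosen after seeing the data. No paired analysis was possible because the RNA and the tag library come from the same cells of 1 animal and no groups of samples were compared. With 67 cells and 274778 UMIs, genes under about 50 UMIs have wide intervals, and how far these results hold in other animals cannot be told.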

Other observations

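The T cell receptor segments of the SOX4+ cells were varied. Of 25 alpha chain variable segments (TRAV) named in the data, 17 were found in 32 of 67 cells, and the most counted, TRAV20, held 15.96% of 94 UMIs. Of 21 beta chain segments (TRBV), 15 were found in 36 cells, led by TRBV23-1 with 19.0% of 252 UMIs, in 3 cells. By cells the most frequent beta segment was TRBV28, in 7 of 67 cells. In SOX4-undetected cells 23 of 25 alpha and 21 of 21 beta segments were found among 852 cells, with TRBV23-1 again the most counted at 12.3% of UMIs. Gamma chain segments (TRGV) had 0 UMIs in the SOX4+ cells, 29 UMIs in 22 SOX4-undetected cells, and were found in 9.38% of other CD3+ cells. The only delta segment measured, TRDV3, had 0 UMIs in the SOX4+ cells and 1 in the SOX4-undetected cells.

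The SOX4+ cells that failed on a single condition differed in CD8 tag. The median was 95 UMIs in the 8 cells with a FOXP3 UMI, 151 in the 17 without CCR7, 175 in the 30 without LEF1 and 1026 in the 8 with a GZMB UMI, of which 6 lay above background. Among the 322 barcodes that the filters removed, 2 met the SOX4+ conditions and 28 the SOX4-undetected ones.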
